A study of Drosophila melanogaster with 2 samples.

Results

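Intergenic summits were the points of highest signal of peaks bound by the repressor E(spl)mδ-HLH that lay inside no annotated gene body, transposable elements ignored, and more than 500 bp from every transcription start site (TSS) of a protein-coding gene. The rule was applied to the 2750 peaks of the authors' list thresholded on the irreproducible discovery rate, and 359 summits met it (13.1%, exact binomial 95% interval 11.8 to 14.4). The sequence that meets the rule makes up 27.8% of the 6 chromosome arms analysed. Promoter summits, within 500 bp of a protein-coding TSS, numbered 1524 and intronic summits 710. Chromatin immunoprecipitation sequencing (ChIP-seq) recovers DNA crosslinked to a protein and maps it to the genome. The series had 1 group of 2 biological replicates of whole Drosophila melanogaster embryos, mixed in sex and 2 to 12 h old. They came from a transgenic line that carries E(spl)mδ-HLH with GFP at its C-terminus, and the chromatin was sonicated to 200 to 800 bp. The sources used here do not give the promoter of the transgene, how much flanking DNA it holds or whether the native gene was intact. A free-text label calls the samples input control, while the assay and antibody labels name an immunoprecipitation. The files hold no read counts, so depth is unknown, intervals cover counting error only, and no p-value was computed, since peaks are not replicates and there is no second group. Whole embryos mix many cell types, so binding in few cells and weak binding in many cannot be told apart.

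E(spl)mδ-HLH is a basic helix-loop-helix protein of the Enhancer of split complex, a cluster of genes switched on by Notch signalling through the DNA-binding protein Su(H). Its family represses transcription together with the corepressor Groucho and limits how many cells of the neuroectoderm become neural precursors. Family members bind E-boxes and related sites, and in developmental genes such sites often sit in enhancers, which can lie far from the gene they act on. A gene named below for a summit is the one whose protein-coding TSS was closest, or a gene flanking its gap, and distance alone does not show that it is a target. Signal is the authors' enrichment value of a peak, comparable only within a list, and rank 1 is the strongest peak of a list.

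None of the 12 motifs searched was in every window printed below for the strongest intergenic summits. Whether these summits share another motif was not tested, and summits on the other arms are not printed. The sequences follow after their positions. These sequences are windows of 50 bp on each side of a summit, from the NCBI Release 6 genome (dm6), plus strand, 5′ to 3′. Capitals mark every match, on either strand, to any of the 12 motifs spelled out with the motif results. The first 8 are the strongest intergenic summits on arms 2L, 3L, 3R and 4, and the last 4 are the next strongest there with a class C site, a GAGA repeat, a CA repeat and a Su(H)-type site, chosen after their values were seen. The window nearest hll lies at chr2L:14024498-14024598, that nearest zfh2 at chr4:497883-497983 and that nearest Glut3 at chr3R:16798816-16798916. The windows nearest E(spl)malpha-BFM lie at chr3R:26008648-26008748 (distal) and chr3R:26009363-26009463 (proximal), and that nearest cpo at chr3R:17919180-17919280. CheA75a is nearest to chr3L:18268220-18268320 and CG3961 to chr3L:18891007-18891107. The 4 examples are chr2L:3832283-3832383 (slp2), chr3R:29287486-29287586 (CG14506), chr2L:4333255-4333355 (Atet) and chr2L:14022002-14022102 (NimC3).
hll: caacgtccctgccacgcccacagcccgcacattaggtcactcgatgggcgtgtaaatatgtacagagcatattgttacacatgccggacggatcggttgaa
zfh2: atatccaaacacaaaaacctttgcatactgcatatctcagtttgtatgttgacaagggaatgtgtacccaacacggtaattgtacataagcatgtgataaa
Glut3: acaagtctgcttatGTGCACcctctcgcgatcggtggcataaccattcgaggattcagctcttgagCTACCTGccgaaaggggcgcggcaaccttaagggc
E(spl)malpha-BFM distal: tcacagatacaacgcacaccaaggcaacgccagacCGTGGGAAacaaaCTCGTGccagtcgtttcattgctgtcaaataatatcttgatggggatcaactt
E(spl)malpha-BFM proximal: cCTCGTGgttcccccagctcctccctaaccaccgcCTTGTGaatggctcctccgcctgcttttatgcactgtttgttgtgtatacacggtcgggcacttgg
cpo: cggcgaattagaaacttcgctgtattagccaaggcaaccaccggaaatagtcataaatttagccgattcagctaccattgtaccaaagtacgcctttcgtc
CheA75a: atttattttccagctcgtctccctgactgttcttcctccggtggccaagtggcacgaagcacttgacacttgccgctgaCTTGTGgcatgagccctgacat
CG3961: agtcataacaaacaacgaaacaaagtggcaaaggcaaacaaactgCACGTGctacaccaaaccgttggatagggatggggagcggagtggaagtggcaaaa
slp2: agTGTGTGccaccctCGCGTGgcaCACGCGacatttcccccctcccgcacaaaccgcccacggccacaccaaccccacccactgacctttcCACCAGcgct
CG14506: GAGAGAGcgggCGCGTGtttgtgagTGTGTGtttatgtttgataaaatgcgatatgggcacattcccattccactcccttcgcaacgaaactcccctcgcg
Atet: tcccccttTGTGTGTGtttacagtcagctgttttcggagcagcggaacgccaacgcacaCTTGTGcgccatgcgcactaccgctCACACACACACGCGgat
NimC3: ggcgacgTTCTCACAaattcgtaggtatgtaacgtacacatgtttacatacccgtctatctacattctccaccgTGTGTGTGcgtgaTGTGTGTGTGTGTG
In the window of hll, zfh2 and cpo no base is in capitals. The distal E(spl)malpha-BFM window holds a Su(H)-type match from base 36 to 43 and an N-box from base 49 to 54. This N-box covers the summit, at base 51. The slp2 window holds a pair of class C matches, from base 16 to 21 and from base 25 to 30. The run of TGTG repeats that ends the NimC3 window and the CACA run near the end of the Atet window are examples of the CA repeats found in about 1 window of 4.

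The 15 strongest intergenic summits had signals of 469 to 785 and stood between rank 16 and 84 of all 2750. None ranked beyond 167 in replicate 1 or beyond 133 in replicate 2. High ranks in both were largely set by picking the highest signals from a list thresholded on reproducibility. The first (2R 9095125 to 9095343, signal 785) ranked 12 and 36 in the replicates and lay between Boot, a gene of the piRNA pathway, and Ctu1, a tRNA thiolation gene. Its summit was 581 bp from the TSS of Boot but 34 bp upstream of the start of Uhg4, a non-coding host gene of small nucleolar RNAs. The second (2L 14024460 to 14024634, signal 744), between NimC3, a Nimrod family gene, and hll, ranked 26 and 14 in the replicates and lay 449 bp upstream of the start of a long non-coding RNA, CR31840. The third (2R 15762361 to 15762541, signal 739) lay in a gap of 520 bp between the 3′ ends of CG30089 and Zasp52, a Z-disc protein gene of muscle, 13617 bp from the nearest TSS.

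The others lay from about 0.5 kb to over 10 kb from the nearest TSS. The peak upstream of zfh2, a zinc finger and homeodomain gene on the small chromosome 4 (497829 to 498031, signal 611), peaked 3877 bp from the TSS and ranked 38 and 44 in the replicates. A peak between Glut3 and the Hox gene abd-A (3R 16798795 to 16798948, signal 596) lay 8348 bp from the end of abd-A that faces it and ranked 43 and 42. The peak between RYBP, whose product binds Polycomb proteins, and Ppa (2R 22678364 to 22678575, signal 514) ranked 71 and 65. The peak 602 bp upstream of cpo, which encodes an RNA-binding protein of the nervous system (3R 17919147 to 17919309, signal 495), ranked 79 and 74. Peaks between C15, a homeobox gene, and sp3 (signal 474) and between tara and bor (signal 474) ranked 72 and 133 and 90 and 88. The remaining ones lay nearest CheA75a (signal 492), 16182 bp away, and CG3961 (signal 487), and the others belong to the E(spl) complex and to a cluster described below. Of the 15, 4 were within 1000 bp of a protein-coding TSS and 5 were beyond 5000 bp.

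Intergenic summits had a median signal near that of the list and reached about the middle of its range. Their median signal was 162 (quartiles 132 to 216, range 117 to 785), against 162 over all peaks (range 117 to 1477), 157 for intronic and 163 for promoter summits. The median rank was 1365 of 2750. Among the strongest 100 peaks, 18 were intergenic, 17 intronic, 56 at promoters and 9 exonic. Peaks in these classes had a median width of 250 bp.

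Of the 359 intergenic peaks, 298 (83.0%, 78.7 to 86.7) overlapped one of the strongest 2750 peaks of replicate 1, against 83.5% of all thresholded peaks. In replicate 2 the count was 269 (74.9%, 70.1 to 79.3), against 76.5%, and in both replicates it was 213 (59.3%, 54.1 to 64.5), against 61.7%. The shares for intergenic summits lay within about 3 percentage points of those of the whole list. A peak of any rank was found in both replicate lists of 30000 for 355 members (98.9%), against 2730 of all 2750 (99.3%). A list thresholded on reproducibility makes this likely in advance. Their median rank was 1429 in replicate 1 (quartiles 652 to 2209) and 1450 in replicate 2 (658 to 2675). The replicates' own strongest 2750 peaks held 362 and 355 intergenic summits, and 297 (82.7%) and 268 (74.7%) of the members overlapped these.

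The replicates disagreed strongly on 17 members, which were among the strongest 2750 peaks of one replicate and beyond rank 10000 or missing in the other. Of these, 14 were strong in replicate 1 and 3 in replicate 2. The share was 4.74% (2.78 to 7.47), against 89 of all 2750 peaks (3.24%, 80 of them strong in replicate 1), inside that interval. A peak 3721 bp upstream of eya, a regulator of eye and muscle development, ranked 1584 in replicate 1 and 20630 in replicate 2. The reverse was seen for a peak nearest Jhbp1, with ranks 20746 and 360, for one nearest CheB38c, with ranks 14279 and 605, and for one 3′ of E(spl)malpha-BFM, with ranks 24705 and 506. Members nearest CG42808, SmD1, Reg-2 and tara had no peak at all in replicate 2. The 17 had thresholded signals below 149, in the lower part of the range.

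**Figure D1:**
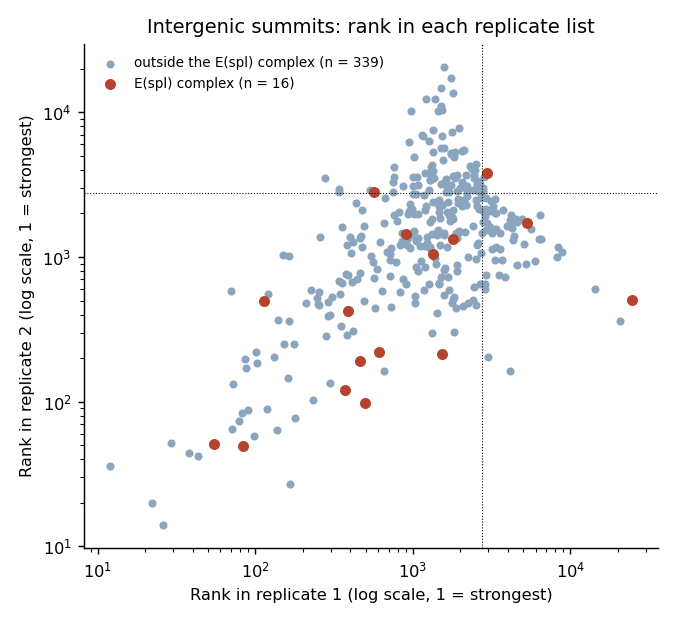
Rank of each intergenic peak in the list of replicate 1 (x axis, log scale) and of replicate 2 (y axis, log scale), for the 355 found in both, with 16 points of the E(spl) complex in red and dotted lines at rank 2750. The strongest members lie near the diagonal, and the spread grows toward weaker ranks.

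The E(spl) complex, taken as its listed genes with 5 kb on either side (3R 25992621 to 26046008), held 16 intergenic summits among its 34 thresholded summits. The 21.7 kb of sequence that meets the rule and lies nearest to a gene of the complex is 0.0581% of all such sequence, while these summits are 4.46% of the members. Their signals ran from 118 to 550 with a median of 252, against 161 for members elsewhere. The median rank was 473 in the thresholded list, 585 in replicate 1 and 460 in replicate 2. A transgene that carries DNA of the complex would add copies of the same sequence, and its reads cannot be told apart from those of the native locus.

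Within the complex the summits lay in the gaps on either side of the Bearded family gene E(spl)malpha-BFM and around several bHLH repressor genes. In the gap of 3819 bp between E(spl)mbeta-HLH and E(spl)malpha-BFM, transcribed away from each other, there were 3 summits, 2195, 1480 and 967 bp upstream of E(spl)malpha-BFM. Their signals were 550, 520 and 272, and their ranks were 55, 83 and 386 in replicate 1 and 51, 49 and 426 in replicate 2. In the gap of 3152 bp between E(spl)malpha-BFM and Kaz-m1, a Kazal-type protease inhibitor gene, 4 summits had signals of 371, 125, 192 and 310 from left to right. The second of these is the member with ranks 24705 and 506, and the others ranked 114, 563 and 494 in replicate 1 and 493, 2800 and 98 in replicate 2.

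The stretch between E(spl)mgamma-HLH and E(spl)mbeta-HLH, both repressor genes, held 4 summits with signals of 301, 304, 154 and 122 from left to right. The first pair ranked 463 and 371 in replicate 1 and 191 and 120 in replicate 2. Near E(spl)m7-HLH, a summit 603 bp upstream of the TSS had a signal of 270 with ranks 606 and 220, and one 1931 bp upstream had a signal of 184 with ranks 904 and 1450. A summit 1086 bp upstream of E(spl)m5-HLH had a signal of 234 with ranks 1525 and 214, and one 544 bp upstream of the Bearded family gene E(spl)m6-BFM had a signal of 174 with ranks 1349 and 1053. The weakest of the 16 lay 1200 bp from the TSS of E(spl)m4-BFM, with a signal of 118 and ranks 2948 and 3786. Of the 16 peaks, 11 ranked higher in replicate 2. Replicate 1 gave the higher rank for 5 (31.3%, 11.0 to 58.7), against 209 of the 343 other members (60.9%, 55.5 to 66.1), and the intervals overlap.

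Most intergenic summits were the only intergenic summit of their gap, in counts that include the E(spl) complex and leave out promoter summits. The 359 fell into 273 gaps between neighbouring gene bodies. Of these gaps, 221 held 1 intergenic summit, 34 held 2, 12 held 3 and 6 held 4 or more. Promoter summits in the same gaps were not counted. With at least 2 other members, 70 members (19.5%, 15.5 to 24.0) shared a gap. Without the complex this share was 18.4% (14.4 to 22.9). The median member lay in a gap of 7901 bp, while the median base that meets the rule lay in a gap of 18972 bp. The nearest other summit of any class was a median of 3921 bp away, against 5401 bp over all summits. Within 2 kb, 41.8% of the members had another summit, against 38.3% of intronic and 33.8% of all summits. All 16 members of the complex had one within 2 kb, which raises the share of the members.

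The gap with the most intergenic summits lay on 2R between CG13334 and CG42807 (13560769 to 13570594, 9826 bp) and held 10 of them. Their signals from left to right were 469, 176, 443, 134, 646, 451, 251, 149, 167 and 244. All 10 overlapped one of the strongest 2750 peaks of replicate 1 and 8 of them one of replicate 2. The strongest, with a signal of 646, ranked 29 in replicate 1 and 52 in replicate 2, while the leftmost ranked 167 and 27. The replicates differed most for the summit with a signal of 149, with ranks 977 and 10239. These 10 were 2655 to 6563 bp from the nearest TSS.

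On 2L, neighbouring gaps on either side of Rh5, a rhodopsin gene, held 6 and 4 summits. The gap between Hacd1 and Rh5 (12002267 to 12008152) had signals of 216, 144, 235, 152, 172 and 428, the last 623 bp upstream of Rh5 with ranks 118 and 89. The gap between Rh5 and Wdr81 (12009833 to 12013527) had signals of 197, 147, 181 and 292, and all 4 were among the strongest 2750 of each replicate. Another gap on 2L, between COX7AL2 and CG31668 (2197913 to 2203720), held 4 summits with signals of 191, 185, 155 and 280. On 3L, a gap of 75047 bp between NijA, a ninjurin gene, and CG43245 (10696878 to 10771924) held 6, of which 5 lay within about 6 kb of each other with signals of 277, 176, 138, 147 and 147, and the sixth, with a signal of 181, lay 4957 bp from CG43245. Replicate ranks within these gaps ran from 118 to 4110 in replicate 1 and from 89 to 4336 in replicate 2.

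**Figure D2:**
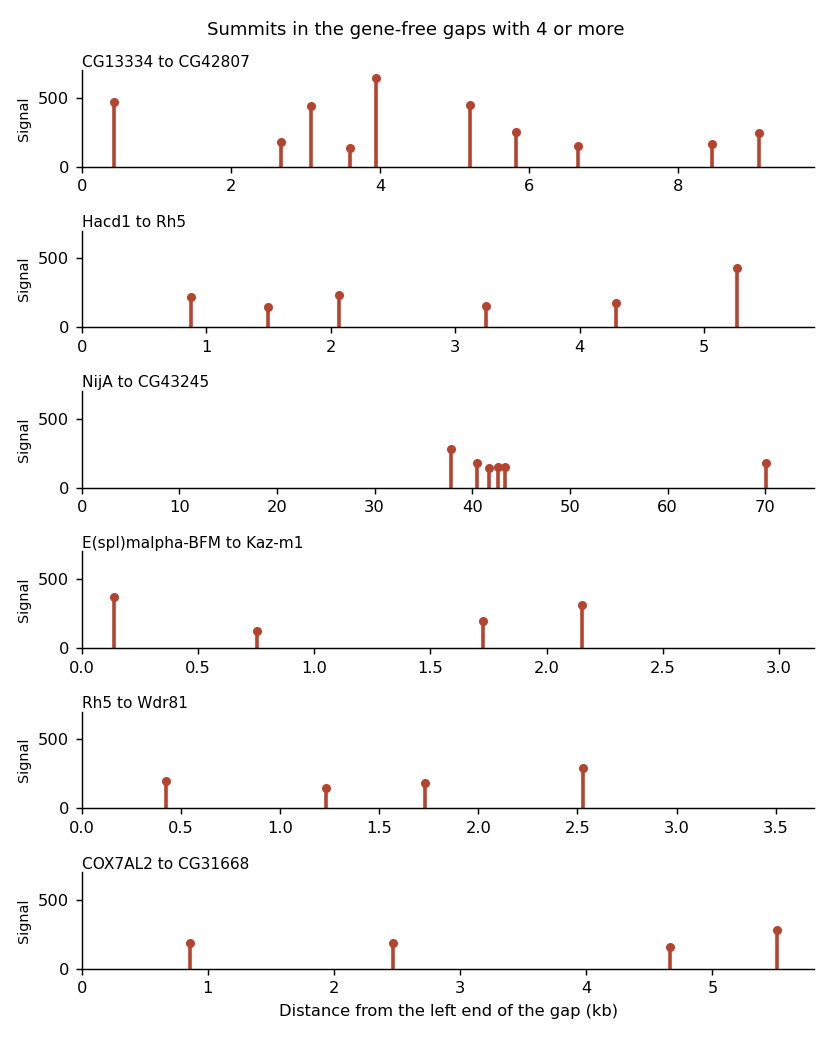
Signal of each intergenic summit (y axis, authors' enrichment value) by its distance from the left end of its gap (x axis, kb) in the 6 gaps with 4 or more summits. The gap between CG13334 and CG42807 holds 10 summits spread over 9826 bp, and in the gap of 75047 bp between NijA and CG43245 5 of 6 lie close together.

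Intergenic summits were concentrated in the sequence nearest to the TSS of a protein-coding gene, although the rule had removed the 500 bp around each TSS. The median distance to a protein-coding TSS was 3326 bp (quartiles 1227 to 7992, range 507 to 51515). The band from 501 to 1000 bp held 71 summits (19.8%, 15.8 to 24.3) in 5.60% of the sequence that meets the rule, or 34.0 per Mb. The band from 1001 to 2000 bp held 62 (17.3%), or 18.0 per Mb, and that from 2001 to 5000 bp held 89 (24.8%), or 11.8 per Mb. Beyond that the density was 8.67 per Mb at 5001 to 10000 bp, 7.34 per Mb at 10001 to 20000 bp and 2.51 per Mb farther out. The farthest band held 26 summits (7.24%, 4.79 to 10.4) in 27.8% of the sequence. The 2 summits most distant from a TSS lay nearest Tmtc2, at 51515 bp, and vvl, a POU homeobox gene, at 49957 bp.

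**Figure D3:**
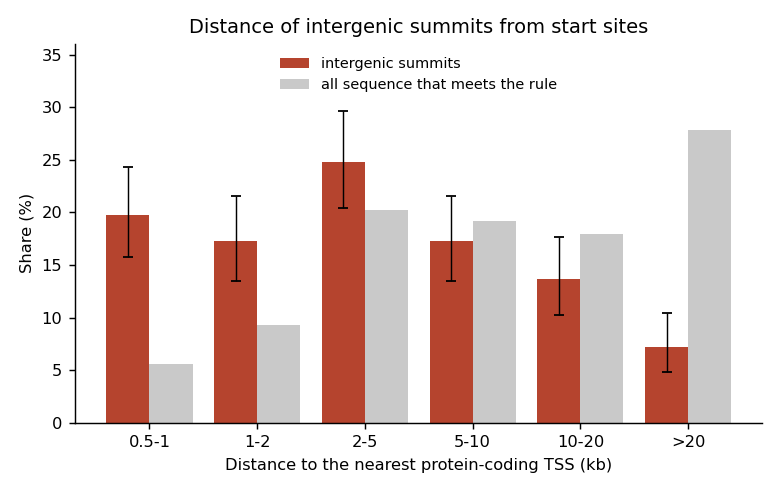
Share of the 359 intergenic summits (red, with exact binomial 95% intervals) and of all sequence that meets the rule (grey) in bands of distance to the nearest protein-coding TSS (x axis, kb; y axis, percent). The summits exceed the sequence in the bands up to 5 kb, and the band above 20 kb holds 7.24% of the summits and 27.8% of the sequence.

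The side of the nearest TSS and the direction of the flanking genes were compared with the sequence that meets the rule. On the upstream side were 233 (64.9%, 59.7 to 69.8), against 57.3% of the sequence. Gaps whose flanking genes are transcribed away from each other held 107 (29.8%, 25.1 to 34.8), against 24.6% of the sequence. Gaps between converging genes held 77 (21.4%, 17.3 to 26.1), against 23.1%, and gaps between genes read in 1 direction held 175 (48.7%, 43.5 to 54.0), against 52.3%. For each of these 3 kinds of gap except the first, the share of the sequence lay inside the interval.

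The X chromosome had few intergenic summits. Per Mb of sequence that meets the rule, arms 2L, 3L and 3R held 10.7, 10.8 and 11.0 summits, 2R held 76 in its 7.60 Mb, and X held 3.87 (21 summits, exact Poisson 95% interval 2.40 to 5.92). Replicate 1's own strongest 2750 peaks gave 3.32 per Mb on X and those of replicate 2 gave 5.35, against 10.1 to 11.9 and 9.09 to 12.0 on the 4 large autosomal arms. Of the 362 thresholded summits on X, 5.80% (3.63 to 8.73) were intergenic, against 12.1% to 17.3% on those arms. The intronic share on X was 27.1% and the promoter share 60.5%, against 24.6% to 26.6% and 51.6% to 57.6%. Chromosome 4 held 2, those nearest zfh2 and dati, the second with a signal of 117.

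Away from promoters, as used here, refers to protein-coding genes only. Of the members, 29 (8.08%) lay within 500 bp of the start of a non-coding gene while outside its body, 21 of them at RNAs annotated as ncRNA, 5 at tRNA, 2 at snRNA and 1 at snoRNA genes. Besides Uhg4 and CR31840, these include the summit 19 bp upstream of lncRNA:CR45352 (2L 14021989 to 14022107, signal 351), whose window is printed above as NimC3. Summits 43 bp and 24 bp upstream of the U1 spliceosomal RNA genes snRNA:U1:95Ca and snRNA:U1:21D had signals of 191 and 138. They ranked 2091 and 2003 in replicate 1 and 462 and 2440 in replicate 2. The tRNA gene tRNA:Ser-TGA-2-1 had a summit 40 bp upstream with a signal of 148 and ranks 1761 and 1877. In a transposable element there was 1 member.

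At the edge of the rule, the 3 members closest to a protein-coding TSS lay 507 bp (CG3505, signal 131), 513 bp (smal, signal 118) and 516 bp (CheB93b, signal 123) from it. The 3 summits outside gene bodies that fell just short lay at 499 bp (sm, signal 228), 493 bp (Prosap, signal 126) and 489 bp (noc, signal 121). Outside gene bodies there were 849 summits in all, of which 490 were promoter summits.

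Over 15 lists of developmental, neural and housekeeping genes, 32 members (8.91%, 6.18 to 12.4) were nearest to a listed gene, against 9.71% of all thresholded summits and 3.89% of the sequence that meets the rule, and 16 of the 32 belonged to the E(spl) complex. Without the complex the share was 4.66% (2.69 to 7.46), against 3.83% of the sequence. Over all thresholded summits, 267 were nearest to a listed gene, only 31 of them to a gene of the complex. Leaving out the complex therefore lowers the share of all summits far less than that of the members. The E(spl) list had 8 of its 12 genes nearest to a member. In the Notch list 1 of 23 genes was, the ligand gene Ser, with a summit 14959 bp upstream of its TSS (signal 132, ranks 2192 and 3113). The neuroblast list had 2 of 24, esg, a Snail family gene (signal 121, ranks 3069 and 2093), and insc, which orients asymmetric division (signal 117, ranks 6409 and 1957). Among 16 proneural and sense organ genes, sens, a zinc finger gene of sensory precursors (signal 130, ranks 1906 and 2851), and hry, a Hairy family repressor gene (signal 120, ranks 1970 and 7792), were nearest to a summit. The Notch, neuroblast and proneural lists took 0.279%, 0.557% and 0.557% of the members, against 0.909%, 0.764% and 0.327% of all thresholded summits. Their shares of the sequence that meets the rule were 0.143%, 0.532% and 0.234%.

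Segmentation and neural RNA-binding genes gave the strongest listed summits outside the E(spl) complex. Of 20 segmentation genes, 3 were nearest to a member. The summit between slp1 and slp2, forkhead genes of segment patterning (2L 3832270 to 3832373), had a signal of 384 and ranks 162 and 145, and lay 4507 bp upstream of slp2. The others were ptc, the Hedgehog receptor gene (signal 140, ranks 1151 and 6893), and hry. Of 12 neural RNA-binding genes, cpo and msi, the Musashi gene (3R 25515480 to 25515585, signal 340, ranks 163 and 363, 571 bp upstream), were nearest to a member. The 12 chromatin regulators included psq, with summits 5943 bp (2R 10551820 to 10552069, signal 360, ranks 152 and 252) and 2552 bp upstream (signal 120, ranks 5600 and 1571), and Psc, a Polycomb group gene (signal 128, ranks 2549 and 1205). The segmentation, RNA-binding and chromatin lists took 0.836%, 0.557% and 0.836% of the members, against 0.4%, 0.727% and 0.764% of all thresholded summits. Their shares of the sequence that meets the rule were 0.797%, 0.0682% and 0.0841%.

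Single members were nearest to CycB of 11 cell cycle genes (signal 190, ranks 911 and 1218) and to repo, the glial determinant, of 9 glial genes (signal 123, ranks 3566 and 1457). Of 17 mesoderm and muscle genes, slou, a muscle identity homeobox gene (signal 188, ranks 665 and 2572), and htl, an FGF receptor gene (signal 129, ranks 3329 and 2024), were nearest to a summit. The cell cycle, glial and mesoderm lists took 0.279%, 0.279% and 0.557% of the members, against 0.436%, 0.255% and 0.509% of all thresholded summits. Their shares of the sequence that meets the rule were 0.0227%, 0.0313% and 0.317%. None was nearest to a gene of the Hox (8 genes), dorsoventral (12), endoderm and hemocyte (11), trachea and midline (8) or cytosolic ribosomal protein (93) lists. In the same order, 0.191%, 0.276%, 0.100%, 0.235% and 0.935% of the sequence that meets the rule was nearest to these lists. With so little sequence, the absence of members does not show that these genes were avoided. Those lists had 10, 11, 9, 7 and 67 thresholded summits of other classes nearest to them, 66 of the 67 ribosomal protein summits being at promoters. Counting either flanking gene, the Hox list had 1 member, the one beside abd-A. Genes known by a CG number were nearest to 138 members (38.4%), against 22.1% of all summits and 45.5% of the sequence that meets the rule.

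The sequence under intergenic summits was richer in G and C than its surroundings and held CA repeats and class C sites more often. GAGA repeats and N-boxes were also more frequent there, with intervals that overlapped an interval of the flanking windows. Mean GC content within 50 bp of the summit was 50.4% ± 6.81 (SD, n = 359 windows), against 40.7% ± 10.7 in windows centred 500 bp to the left, 39.8% ± 10.2 to the right and 40.8% over all sequence that meets the rule. Intronic summits had 49.6% and promoter summits 52.0%. Motif shares are therefore given beside those of the left and right windows, of all 360469 windows of the same length in sequence that meets the rule, and of those windows weighted to the GC content of the summits. The left and right windows were taken for every member, whether or not they met the rule. Some of them lie near a TSS, in a gene body or close to another summit. Summit and flanking windows were not compared as pairs. Each set has its own interval, and an overlap of intervals does not show that shares are equal.

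The class C site CACGCG, bound by Hairy-related repressors, was in 38 of 359 windows (10.6%, 7.60 to 14.2), against 8.47% of all thresholded summits. The left and right windows had it in 1.67% (0.616 to 3.60) and 1.11% (0.304 to 2.83), intervals that end below that of the summits, all sequence that meets the rule in 1.54%, and that sequence weighted for GC in 2.61%. In the plot of shares by distance it fell to 3.90% and 2.51% at 100 bp to the left and right. The strongest holders were the summit nearest CG42807 with a signal of 451, that nearest slp2, one on X nearest CG32719 (signal 376, ranks 231 and 102) and that nearest Atet. Members with the site had a median signal of 184, against 161 without it. Intronic summits had 8.03% and promoter summits 8.60%, both inside the interval of the intergenic share.

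The class B E-box CACGTG, the other site ascribed to Hairy and E(spl) proteins, was in 10 windows (2.79%, 1.34 to 5.06), against 3.35% of all thresholded summits and 1.39% and 0.836% of the left and right windows. Weighted for GC, the sequence that meets the rule had it in 1.65%, inside that interval. The N-box CACNAG, named for E(spl) proteins, was in 65 (18.1%, 14.3 to 22.5), against 17.1% of all thresholded summits, 10.9% and 12.0% of the left and right windows and 14.2% of the GC-weighted sequence. A control with the bases of the class B site in another order, GTGCAC, was in 12 (3.34%, 1.74 to 5.77), against 4% of all thresholded summits and 2.79% and 3.90% to the left and right. The interval of the N-box share overlapped those of its left (7.84 to 14.6) and right windows (8.81 to 15.8). Its excess was 6.69 percentage points (2.84 to 11.1) over the mean of both flanks and 3.89 (0.0475 to 8.27) over the GC-weighted sequence. These intervals cover the counting error of the summit windows only.

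The GAGA repeat GAGAGAG, a binding sequence of GAGA factor, was in 24 windows (6.69%, 4.33 to 9.78), against 9.24% of all thresholded summits, 11.0% of intronic and 9.06% of promoter summits. The left and right windows had 1.67% (0.616 to 3.60) and 2.51% (1.15 to 4.71), the second interval overlapping that of the summits, and the GC-weighted sequence had 1.62%. At 100 bp to the left and to the right the share was still 5.85%, so it was not sharply centred on the summit. CA repeats were the most common of the sequences searched. The word CACACA was in 89 windows (24.8%, 20.4 to 29.6), against 22.3% of all thresholded summits, 10.6% (7.60 to 14.2) and 9.75% (6.89 to 13.3) of the left and right windows and 9.38% of the GC-weighted sequence. It was added to the motif list after all words of 6 bases were counted, in which it led the others in excess over the GC-weighted sequence. Intronic summits had it in 29.2% and promoter summits in 18.8%. The CA repeat share was 25.6% in the 180 stronger and 24.0% in the 179 weaker members.

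CA repeats, class C sites and GAGA repeats fell partly in the same windows. Of the 89 windows with a CA repeat, 9 held a GAGA repeat and 14 a class C site. Together the 3 were in 127 windows, and 232 (64.6%) had none of them. Of the words lowest against the GC-weighted sequence, GGACCA was in 1 window (0.279%), against 6.34% of that sequence and 2.23% of the windows on each side. CAGGAC was in 4 (1.11%), against 6.93% of that sequence and 1.67% and 1.11% of the left and right windows.

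**Figure D4:**
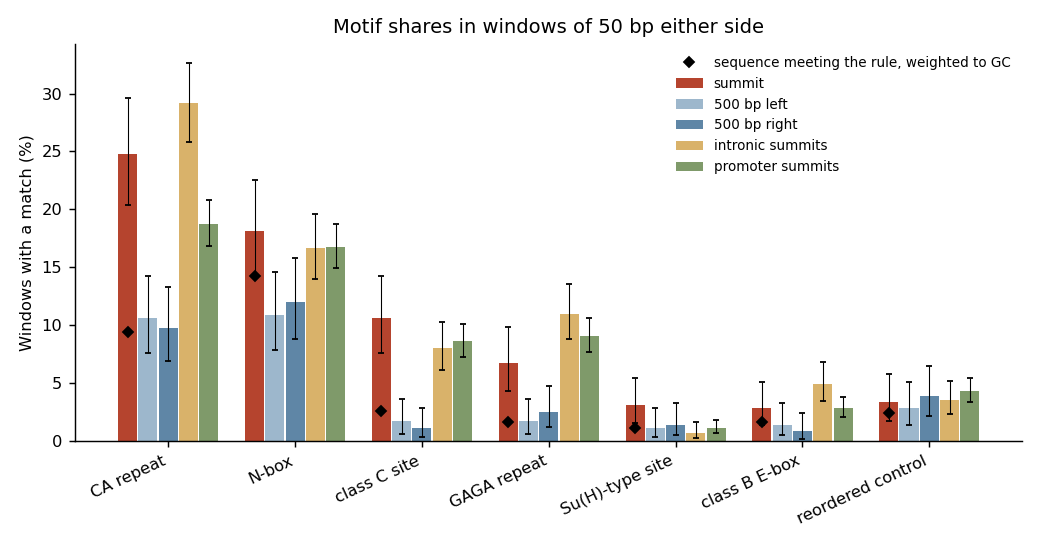
Share of windows of 50 bp either side that hold each motif (y axis, percent) at intergenic summits, 500 bp to the left and right of them, and at intronic and promoter summits, with exact binomial 95% intervals, and black diamonds for the GC-weighted sequence that meets the rule. The CA repeat (24.8%) and the class C site (10.6%) stand above both flanking windows, and the reordered control does not.

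Sites of Su(H), the nuclear effector of Notch, were rare, and some of the strongest intergenic peaks held one. The consensus (C or T)GTG(A or G)GAA was in 11 windows (3.06%, 1.54 to 5.42), against 1.24% of all thresholded summits, 0.704% of intronic and 1.12% of promoter summits. The left and right windows had 1.11% (0.304 to 2.83) and 1.39% (0.454 to 3.22), which overlap that interval, and the GC-weighted sequence had 1.08%. The strict form, with T first and G in the variable middle base, was in 3. Members with the consensus had a median signal of 251, against 162 without it. Of the 11, 3 were in the E(spl) complex, the distal E(spl)malpha-BFM summit (signal 550), one upstream of E(spl)m7-HLH (signal 270) and one nearest E(spl)mbeta-HLH (signal 122, ranks 5304 and 1726). Another 3 were in the gap between CG13334 and CG42807, with signals of 451, 251 and 149. The rest lay nearest CG13321 (2R 12959065 to 12959184, signal 409, ranks 178 and 77), NimC3 (signal 351), CG46304 (signal 180), repo (signal 123) and SmD1 (signal 122). Without the complex the share was 2.33%.

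The 16 summits of the E(spl) complex held none of the class B, class C and GAGA motifs, which allows a share of up to 18.8% for each. N-boxes were in 2 of them and CA repeats in 5. Their mean GC content was 50.9%, against 50.4% for all members.

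The other sequences searched had intervals that overlapped those of their flanks. The proneural E-box GCAG(C or G)TG was in 13 windows (3.62%, 1.94 to 6.11), against 5.82% of all thresholded summits, 1.39% (0.454 to 3.22) and 1.67% (0.616 to 3.60) to the left and right and 4.63% of the GC-weighted sequence. CATATG was in 17 (4.74%, 2.78 to 7.47) against 2.23% and 4.46% to the left and right, CACCTG in 15 (4.18%, 2.36 to 6.80) against 2.79% and 2.23%, and the Zelda-type site CAGGTAG in 3 (0.836%) against 0.557% and 0.836%.

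**Figure D5:**
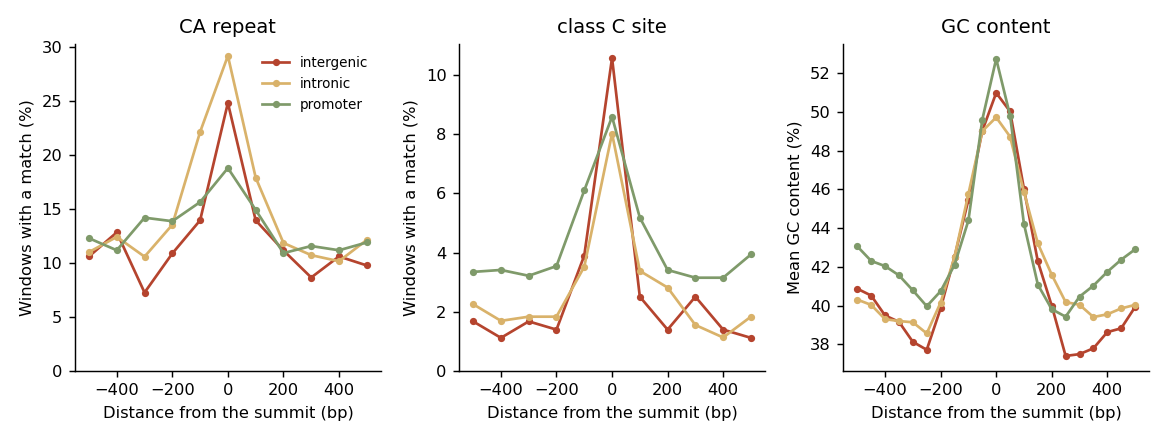
Share of windows with a CA repeat (left) or a class C site (middle) and mean GC content (right), on y axes in percent, by distance of the window from the summit (x axis, bp) for intergenic, intronic and promoter summits. Each measure peaks at the summit in the 3 classes, and the class C share of intergenic summits falls from 10.6% to 3.90% and 2.51% within 100 bp.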

How the data were processed

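Per the labels, ChIP-seq was run on 2 biological replicates of 1 group. The authors deposited peak lists on dm6 in narrowPeak layout, 1 per replicate with 30000 peaks and 1 thresholded on the irreproducible discovery rate with 2750, called against a control alignment, per the deposited file listing. The signal of each peak is the authors' deposited value. Summit offset in bp was another deposited column. The aligner, the caller and the threshold were not given in the sources used here. A list of both replicates pooled was not used here. Gene models were Ensembl's for BDGP6, and bases were read from NCBI's Release 6 genome, the same assembly. In it 30540 of 30593 start codons of the gene models were ATG, and 0 peaks passed an arm end. Coordinates are 1-based.

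Peaks matched between lists if they shared at least 1 bp, taking the strongest. Intervals of shares are exact binomial at 95%, also for a count of 0. Motifs were searched on both strands in windows of 101 bp. Sequence that meets the rule (37.3 Mb) was tiled in such windows and weighted by GC in bins of 5 percentage points. Named were the 15 strongest members, those of the E(spl) complex, gaps with 4 or more, up to 4 genes per list, and 3 summits on either side of the distance limit. Other named members were chosen after their values were seen. The members, lists and motifs were chosen with earlier results of these data known. Classing was tested on random positions inside and outside the sequence that meets the rule. Motif search was tested on random sequence with planted sites, and matching on replicate 1 peaks against their own list. The software was matplotlib 3.10.9, pandas 2.3.3, scipy 1.17.1, numpy 2.4.6 and python 3.11.15. Alternatives were other distance limits, start sites of every biotype, the strongest 1375 peaks, each replicate alone, other matching rules, other windows and other reference sequence.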

Additional observations from a re-analysis of the deposited data

How the results depend on the processing

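Of 111 alternatives to 19 results, 95 left the value inside its 95% interval (for GC, within 1 SD), and 16 moved it. Only the 6 differences from reference windows could change sign, and none of these did. The share of intergenic summits was 14.7% with a limit of 250 bp and 10.5% with 1000 bp, and with 1000 bp the median TSS distance was 4616 bp, as the limit itself dictates. Shorter and longer windows change motif shares by their length. Windows of 25 bp either side gave 2.23% for GAGA repeats, 5.85% for class C, 1.11% for class B, 9.75% for N-boxes, 1.39% for the Su(H) consensus and 12.3% for CA repeats, and windows of 100 bp gave 13.4% for GAGA repeats, 29.2% for N-boxes and 34.8% for CA repeats. The share nearest a listed gene was 4.66% without the E(spl) complex and 16.4% counting either flanking gene. The share among the strongest peaks of both replicates was 51.3% if 50% of both peaks had to overlap. Members sharing a gap with 2 or more others were 29.2% if only protein-coding genes bounded gaps, an alternative added after seeing the data, as were those without summits near non-coding starts and the reference sequence. With 1 replicate's own list, the intergenic share was 12.9% to 13.2%, the class C share 8.01% to 10.1% and the CA repeat share 21.3% to 26.5%. Without depth, weak peaks missing in 1 replicate cannot be assigned to too few reads or to no binding. With 1 group, samples could not be paired between groups, and a paired comparison of summit and flanking windows was not run.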

Other observations

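Several intergenic clusters outside the named gaps lay between or beside regulators of development, picked with their values in view. In the gap of 31391 bp between caup and mirr, homeobox genes of the Iroquois complex (3L 12662248 to 12693638), there were 3 summits with signals of 268, 175 and 119. All 3 were among the strongest 2750 peaks of replicate 1 and 1 of replicate 2. Between CG13321 and Psc (2R 12955713 to 12965996) there were 3, with signals of 409, 363 and 205 and ranks of 178, 131 and 1429 in replicate 1 and 77, 203 and 408 in replicate 2. Between hry and SrpRbeta (3L 8693192 to 8718948), 3 summits had signals of 250, 134 and 120, and the strongest ranked 489 and 497. Upstream of tara, a gene that acts with Polycomb and trithorax group genes, 3 weak summits had signals of 121, 118 and 117, with ranks of 1205, 8775 and 1350 in replicate 1. In replicate 2 the first ranked 12294, the second 1076, and the third had no peak.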
